A study of Mus musculus with 3 samples.

Results

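The suppressor of cytokine signalling (SOCS) family was examined as the 8 genes Socs1, Socs2, Socs3, Socs4, Socs5, Socs6, Socs7 and Cish, taken by name from 55450 annotated mouse genes, of which 21951 are protein-coding. RNA of the chromatin fraction was measured in macrophages grown from bone marrow of C57BL/6J mice and given 100 ng/ml of lipid A, the TLR4-binding portion of bacterial lipopolysaccharide, for 15 min. All 3 biological replicates belong to this single group, and no unstimulated library was analysed here, so the values describe a state and not a response. No genetic change is given for the mice, and sex and age were not recorded. The replicates carry separate sample labels and one donor label, so their spread may be partly technical. The libraries began from unequal amounts of RNA, 1000, 250 and 500 ng for replicates 1, 2 and 3.

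Several SOCS proteins are inducible brakes on cytokine signalling. Cytokine receptors activate Janus kinases (JAKs), which phosphorylate STAT transcription factors. STATs switch on some SOCS genes, whose products then act back on the receptor and kinase. This loop is not described for every member. Each family member pairs an SH2 domain, which binds phosphotyrosine, with a SOCS box, which binds elongins and recruits a cullin ubiquitin ligase. In macrophages Socs1 is known for restraining interferon and Toll-like receptor signalling, and Socs3 for restraining signals through the interleukin-6 receptor chain gp130.

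The libraries held 10974934 to 21376404 expected counts. The labelled cell type matched its markers, since 10 of 10 macrophage markers had at least 1 TPM (transcripts per 1000000) in every library and Csf1r, the receptor for the macrophage growth factor, averaged 159 ± 37.4 TPM (SD, n = 3). No marker on the T cell, B cell, neutrophil, dendritic cell or stromal lists reached 1 TPM in every library, and on the erythroid list 1 of 5 did, the haem synthesis gene Alas2. The summed TPM ranged over the libraries from 0.08 to 0.51 for the 5 T cell markers, 0.07 to 0.13 for the 5 B cell markers and 0.71 to 1.29 for the 6 neutrophil markers. It ranged from 1.70 to 4.37 for the 5 dendritic cell markers, 5.21 to 9.62 for the 5 erythroid markers and 0.24 to 1.37 for the 5 stromal markers. In the gene table Cd3e, Cd3g, Cd79b, Pax5, Elane and Mpo had no count in any library. In the second quantification described below, 2 T cell, 3 dendritic cell, 1 erythroid and 2 stromal markers reached 1 TPM in every library. There the T cell markers Cd3d, Cd8a and Cd3g averaged 16.1 ± 4.35, 3.88 ± 1.37 and 1.29 ± 0.382 TPM (SD, n = 3 each). The neutrophil marker Mpo averaged 1.49 ± 0.651 TPM (SD, n = 3). The mean of Cd3d there was above that of Socs3, 10.1 TPM. The part of these markers in the results was not tested.

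Of the 8 genes, 5 reached 1 TPM in all 3 libraries, beside 42.6% of protein-coding genes. These were Socs3, Socs4, Socs5, Socs6 and Socs7. Cish reached it in 2 libraries, and Socs1 and Socs2 in none. At 0.5 TPM the count was 6, beside 47.3% of protein-coding genes, and at 5 TPM it was 2, beside 25.8%. On TPM rescaled to sum to 1000000 over protein-coding genes it was 8 at a threshold of 1, beside 52.2%. The median of the 8 genes was 6.23, 2.29 and 6.19 TPM in replicates 1, 2 and 3, or 5.43 ± 2.26 TPM for the median of the gene means (SD of the library medians, n = 3). All protein-coding genes had a median of 0.577 ± 0.158 TPM, and those at 1 TPM or more in every library had a median of 10.2 ± 2.46 TPM (SD, n = 3 each). The summed TPM of the family was 75.0, 27.4 and 64.6, of which Socs6 held 39.1 ± 5.59%, Socs5 20.0 ± 2.27% and Socs3 15.7 ± 11.8% (SD, n = 3 each).

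**Figure D1:**
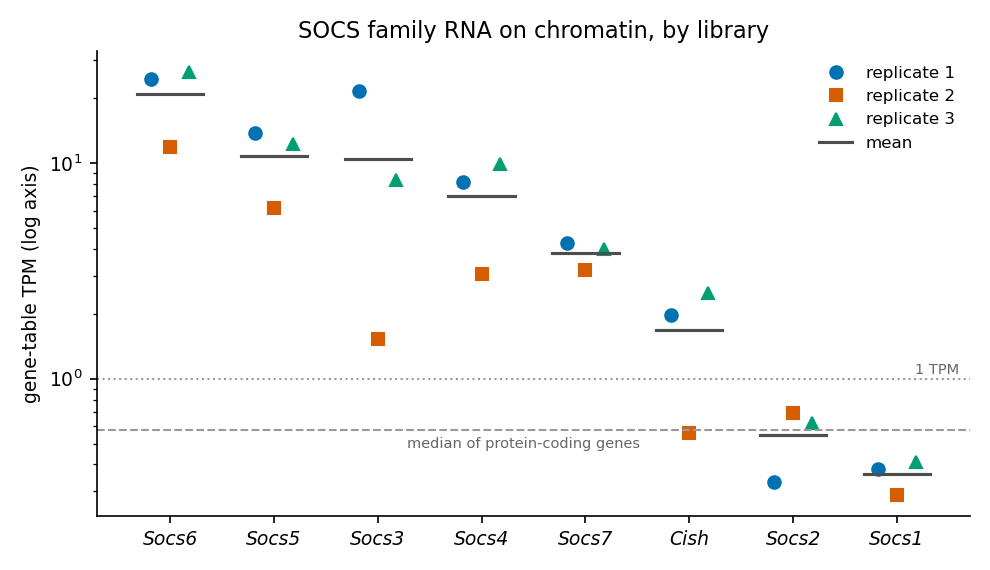
Gene-table TPM of the 8 SOCS family genes on a log axis, with 1 point per library and a bar at the mean, ordered by mean; the dotted line is 1 TPM and the dashed line is the median of protein-coding genes. Socs6 lies between 11.9 and 26.5 TPM, Socs3 spreads from 1.53 to 21.5 TPM, and Socs1 and Socs2 lie below 1 TPM in every library.

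Socs1 and Socs3 encode the members with a kinase inhibitory region, which blocks JAK catalysis directly. A window upstream of each RefSeq start is shown because STAT and interferon-regulated factors are known regulators of these genes. Both are the 250 bases before the RefSeq start on build GRCm38.p6, minus strand, with capitals marking matches to TTCNNNGAA, the STAT motif, or to the interferon-stimulated response element, searched as GAAA, any 2 bases, then GAAA.
Socs3, chr11:117969367-117969616: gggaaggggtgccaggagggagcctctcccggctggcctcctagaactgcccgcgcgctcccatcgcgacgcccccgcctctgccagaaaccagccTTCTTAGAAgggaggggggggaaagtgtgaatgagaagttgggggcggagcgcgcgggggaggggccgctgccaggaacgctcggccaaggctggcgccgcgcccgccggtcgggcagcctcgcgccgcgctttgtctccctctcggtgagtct
Socs1, chr16:10785537-10785786: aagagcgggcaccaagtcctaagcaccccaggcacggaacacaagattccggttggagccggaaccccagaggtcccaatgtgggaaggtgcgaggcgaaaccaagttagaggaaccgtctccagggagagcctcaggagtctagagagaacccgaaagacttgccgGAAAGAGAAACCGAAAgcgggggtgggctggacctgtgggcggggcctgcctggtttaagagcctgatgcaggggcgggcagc
The Socs3 window held 1 STAT match, 154 to 146 bases before the RefSeq start, and no interferon element. Both strands were searched, and 7.02% of 32851 promoters held a STAT match in the same window. The isoform Socs3-201, which held all gene-table reads of Socs3, starts further downstream, at chr11:117969186. The bases between the Socs3 window and that start were not searched. The Socs1 window held 2 interferon element matches, 83 to 74 and 77 to 68 bases before the start, which share bases with each other. Such a match stood in 2.98% of promoters, and the Socs1 window had no STAT match. The RefSeq table held 4 of the 8 promoters. The windows of Cish and Socs4 held neither motif, and Socs2, Socs5, Socs6 and Socs7 were not examined. The Cish window ends at chr9:107296658. Its isoforms with gene-table reads, Cish-204 and Cish-202, start downstream at 107296710 and 107296907. The bases nearest to those starts were not searched. A match is a run of letters and was not tested as a binding site.

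Socs3 (ENSMUSG00000053113.3, chr11:117966079-117970047, minus strand) had 21.5, 1.53 and 8.38 TPM in replicates 1, 2 and 3, or 10.5 ± 10.1 TPM (SD, n = 3). Its expected counts were 686, 112 and 303, with exact 95% Poisson intervals of 636 to 739, 92.2 to 135 and 270 to 339. These intervals, and the floors given below, cover counting error alone; without molecular identifiers, PCR copies are counted as molecules. The 3 intervals did not overlap although replicate 2 was the deepest library. Socs3 exceeded 87.6% of protein-coding genes in replicate 1, 60.4% in replicate 2 and 73.1% in replicate 3. The mean was 4.96 TPM without replicate 1, against 14.9 TPM without replicate 2. In bulk RNA, fewer cells expressing a gene and less RNA per cell cannot be told apart.

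The spread of Socs3 was wide for its level. Protein-coding genes held 16.6% to 25.3% of TPM in the libraries, so TPM was also rescaled to make protein-coding genes sum to 1000000. Scaled TPM of Socs3 was 90.04, 9.19 and 33.2 in replicates 1, 2 and 3, and the highest was 9.79 times the lowest. Of the 9341 protein-coding genes at 1 TPM or more in every library, 2 (0.0214%) had a ratio at least that large, Socs3 itself and Gbp5, an interferon-inducible GTPase gene. This count leaves out genes that fall under 1 TPM in a library, and Socs3 passed with 1.53 TPM in replicate 2. Tcte3, not among these 2, averaged 5.07 TPM. Its log2(scaled TPM + 1) ran from -1.85 to 1.65 about its mean, beside -1.63 to 1.52 for Socs3. The SD of log2(scaled TPM + 1) was 1.58 for Socs3. That was at percentile 99.95 among 2180 protein-coding genes of similar mean. Without replicate 2 the SD was 1.00 and the percentile 99.4.

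The libraries stood in the order replicate 1, 3, 2 for Socs3, as they did for most early cytokine genes of the lipid A response. In scaled TPM, 5 of 6 early cytokine genes had the order 1, 3, 2, beside 28.3% of protein-coding genes at 1 TPM or more in every library. Tnf, which encodes tumour necrosis factor, had 156, 22.6 and 48.6 TPM in replicates 1, 2 and 3. Il1b, which encodes interleukin-1 beta, had 234, 26.7 and 43.7 TPM. Cxcl1, a neutrophil chemokine gene, had 56.7, 5.59 and 23.9 TPM. Each was highest in replicate 1 and lowest in replicate 2. The ratio of Socs3 to Cxcl1 was 0.379, 0.274 and 0.350, while that of Socs3 to Tnf was 0.138, 0.0677 and 0.172. Both ratios were lowest in replicate 2. Il10, whose product signals through STAT3, had 28.3, 3.69 and 8.21 TPM and again the same order. Of the 6 housekeeping genes 2 had this order, Hprt and Tbp, while Actb was highest in replicate 2, at 194, 390 and 154 TPM. The order of Socs3 is also that of the amount of starting RNA, and the reverse of the order of library depth. With 3 libraries the amount, the depth and the state of the cells cannot be told apart.

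The genes nearest to Socs3 in their 3 library deviations, among 6876 protein-coding genes with a mean of at least 5 TPM, were Clec4e, Tcte3 and Cxcl1. Their Euclidean distances were 0.193, 0.262 and 0.274 on the log2(scaled TPM + 1) scale. Clec4e, the gene of the C-type lectin receptor Mincle, was the one gene within 0.25, which is 0.0146% of those compared. These neighbours were added after the values of Socs3 were seen.

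**Figure D2:**
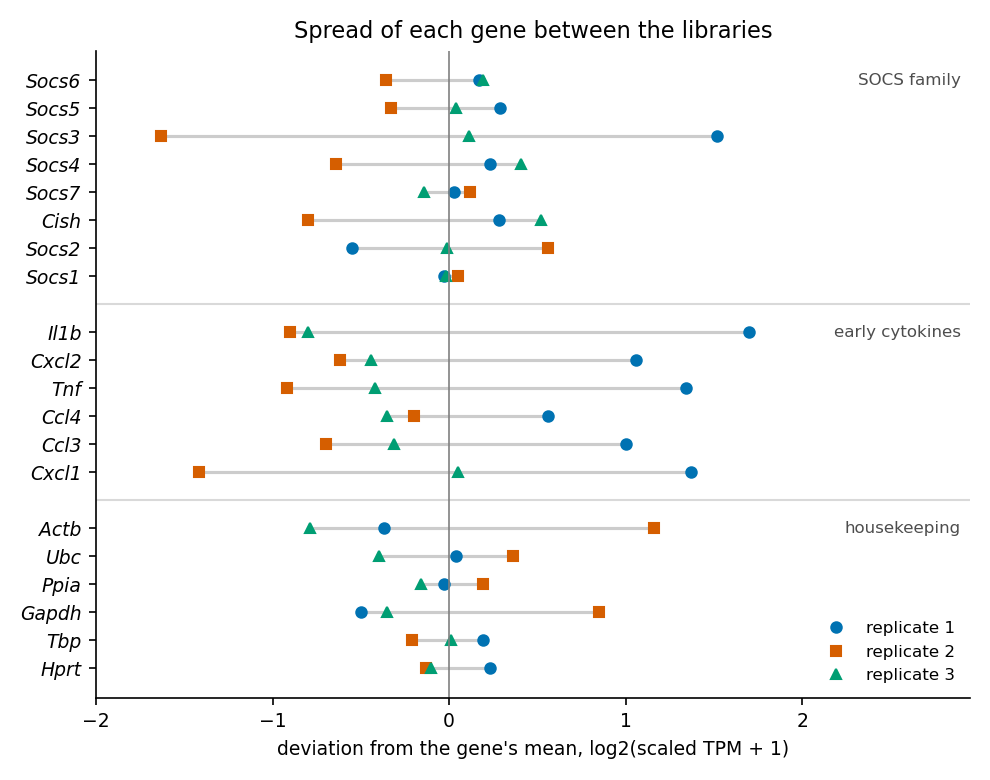
Deviation of each gene from its mean over the 3 libraries, in log2(scaled TPM + 1), for the SOCS family, the early cytokine genes and the housekeeping genes; each point is a library and each grey line the range. Socs3 runs from -1.63 in replicate 2 to 1.52 in replicate 1, beside -0.36 to 0.19 for Socs6 and -1.42 to 1.37 for Cxcl1.

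Socs1 (ENSMUSG00000038037.5, chr16:10782240-10785536, minus strand) had the lowest mean of the family, with 0.38, 0.29 and 0.41 TPM in replicates 1, 2 and 3. These values rest on 14, 23 and 17 expected counts, above the floor of 3 counts, which was worth 0.0378 to 0.0814 TPM for this gene. The exact 95% Poisson intervals were 7.65 to 23.5, 14.6 to 34.5 and 9.90 to 27.2 counts. The intervals overlapped, but they are on counts not scaled for the unequal depth of the libraries. Scaled TPM was 1.59, 1.74 and 1.62. Socs3 exceeded Socs1 by 56.6, 5.28 and 20.4 times in replicates 1, 2 and 3, so the direction was shared and the size was not. Socs1 lay at percentiles 47.5, 48.5 and 47.5 of protein-coding genes.

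Cish and Socs2 are textbook targets of STAT5. Cish encodes the first described family member, and Socs2 a brake on growth hormone signalling. Cish (ENSMUSG00000032578.7, chr9:107296026-107302784, plus strand) had 1.97, 0.56 and 2.5 TPM in replicates 1, 2 and 3, from 108, 65 and 153 expected counts. It was lowest in replicate 2. Opposite Cish lie the annotated genes Gm17040 and Gm17041, which had no count in any library. Use of strand is not given in the sources used here, so reads of a gene and an opposite one may not have been separated. Socs2 (ENSMUSG00000020027.18, chr10:95385362-95417180, minus strand) had 0.33, 0.69 and 0.62 TPM from 10, 23 and 14 expected counts. Its lowest value was in replicate 1 here and in replicate 2 in the second quantification.

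The reads assigned to Cish lay mainly in an isoform that carries intron sequence. Intron 1 of the coding isoform Cish-201 runs over 2889 bases, chr9:107297035-107299923. The isoform Cish-202, annotated as a processed transcript without a coding frame, has 95.95% of this intron in its exons. The stretches below show the first exon junction of both, from GENCODE M21, in lower case for the end of exon 1 and in capitals for what follows. In Cish-201 that is exon 2, and in Cish-202 it is intron 1, which starts with the GT of the splice site.
Cish-201: cctttgcgtacagggATCTTGTCCTTTGCT
Cish-202: cctttgcgtacagggGTAAGCTCAGTTTTT
Cish-202 took 76.1%, 60.94% and 72.03% of the gene's abundance in replicates 1, 2 and 3, and the coding Cish-204, which joins exon 1 to exon 3, took the other 23.9%, 39.1% and 28.0%. Cish-201 was listed at 0 in all 3 libraries. In TPM the share of isoforms not annotated as protein-coding was 69.6 ± 7.99% for Cish (SD, n = 3). Of protein-coding genes at 1 TPM or more in every library, 37.4% had over 50% in such isoforms in every library, and 6.61% had over 50% in isoforms that hold at least 90% of an intron. Cish itself was under 1 TPM in replicate 2. Introns were those of the coding isoform with the longest coding sequence, and by this measure no other member has an isoform of that kind. Socs2-206 is annotated as a retained intron but covers none of those introns. Unspliced RNA of Socs3 or Socs1 could not be recognised in these tables.

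Socs4 and Socs5 form a closely related pair with a long amino-terminal region, and Socs5 and Socs4 are described as regulators of the epidermal growth factor receptor. Socs5 (ENSMUSG00000037104.9, chr17:87107679-87137839, plus strand) had 13.8, 6.18 and 12.3 TPM in replicates 1, 2 and 3, or 10.7 ± 4.02 TPM (SD, n = 3). Socs4 (ENSMUSG00000048379.9, chr14:47276931-47296102, plus strand) had 8.18, 3.05 and 9.90 TPM, or 7.04 ± 3.56 TPM (SD, n = 3). Both were lowest in replicate 2, the library with the smallest protein-coding share of TPM, and after scaling the highest library exceeded the lowest by 1.56 times for Socs5 and 2.14 times for Socs4. Of the 8 members, 2, Socs3 and Socs5, had the library order 1, 3, 2 in scaled TPM, beside the 28.3% of protein-coding genes given above. Nearest to Socs5 in library deviations were Nsmce2, Ythdc1 and Rbbp6, within 0.00849, and 20.4% of the 6876 genes lay within 0.25. All Socs4 reads of the gene table were in the coding Socs4-201, while Socs5 was divided. Its processed transcript Socs5-202 had 7.62, 1.94 and 5.09 TPM, and the coding Socs5-201 had 5.83, 3.98 and 6.70 TPM. The division changed sides, with the processed transcript above the coding isoform in replicate 1 alone.

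Socs6 has been described as binding the receptor tyrosine kinase Kit, and Socs7 the adaptor Nck. Socs6 (ENSMUSG00000056153.15, chr18:88665224-88927481, minus strand) had the highest mean of the family, with 24.6, 11.9 and 26.5 TPM in replicates 1, 2 and 3, or 20.99 ± 7.94 TPM (SD, n = 3). Its expected counts were 1548, 1518 and 1869. Its percentile among protein-coding genes was 89.0, 84.8 and 88.9. Scaled TPM was 103, 71.4 and 104.8, so replicates 1 and 3 were close and replicate 2 was lower. The nearest genes to Socs6 were Srsf6, Selenoi and Ninj1, within 0.00974, and 19.1% of the 6876 genes lay within 0.25. In the gene table the coding isoforms Socs6-201, Socs6-202 and Socs6-203 averaged 12.3 ± 5.97, 5.25 ± 1.60 and 2.43 ± 1.22 TPM (SD, n = 3 each). They start 33129 to 33265 bases downstream of the 5′ end of the annotated gene, which spans 262258 bases. Socs6-206, which starts at that end, was listed at 0 in the gene table's transcript values and averaged 1.86 ± 1.31 TPM in the second quantification (SD, n = 3). Processed pseudogenes inside Socs6 had at most 10 expected counts in a library.

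Socs7 (ENSMUSG00000038485.5, chr11:97362551-97398542, plus strand) had 4.28, 3.19 and 4.0 TPM in replicates 1, 2 and 3, or 3.82 ± 0.566 TPM (SD, n = 3). It is the member with the most coding exons, 9. Its scaled TPM of 17.9, 19.2 and 15.8 varied little, with an SD of log2(scaled TPM + 1) of 0.13 at percentile 11.7 among genes of similar mean. Its processed transcript Socs7-202, of 506 bases, held 20.2 ± 11.3% of its TPM and 1.12 ± 0.762% of its expected counts (SD, n = 3 each), since TPM weights short isoforms more.

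**Figure D3:**
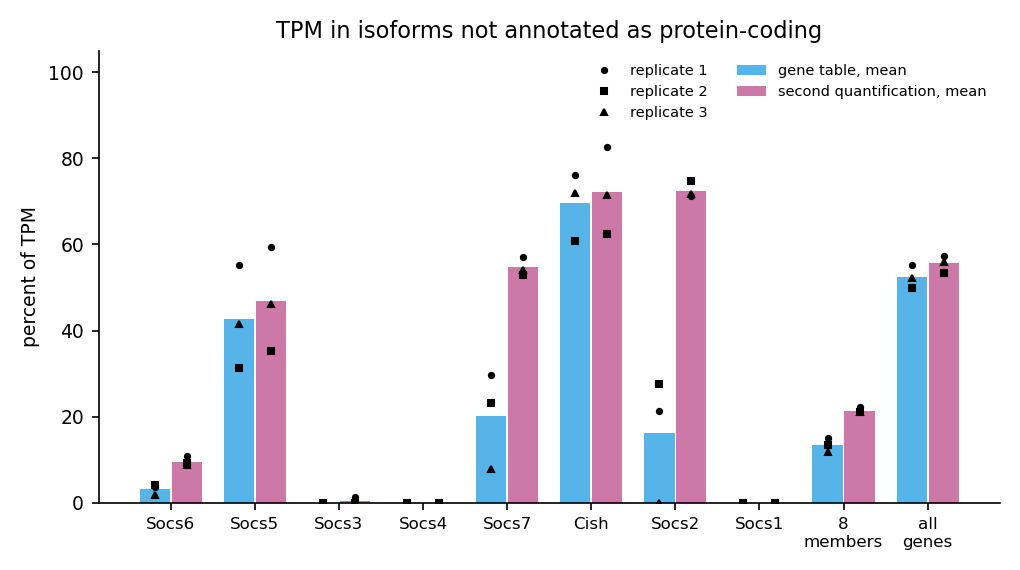
Percent of each gene's TPM in isoforms not annotated as protein-coding, as the mean of the 3 libraries (bars) with each library as a point, in the gene table's transcript values and in the second quantification; the last pairs of bars sum the TPM of the 8 members and of all protein-coding genes. Cish is at 69.6% and 72.2%, Socs1, Socs3 and Socs4 are at or near 0, and Socs2 and Socs7 differ between the quantifications. Socs1 and Socs4 have only coding isoforms annotated.

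Summed over the family, isoforms not annotated as protein-coding held 13.5 ± 1.63% of TPM, against 52.4 ± 2.64% over all protein-coding genes (SD, n = 3 each). In expected counts the shares were 6.95 ± 1.14% and 32.4 ± 4.06% (SD, n = 3 each). The difference was in the same direction in every library. No test was run. Socs3 had no reads in such isoforms in the gene table, and Socs6, the largest contributor, had 3.17 ± 1.24% of its TPM there (SD, n = 3). Socs1 and Socs4 have only coding isoforms annotated, so their share was fixed by the annotation.

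The order of the gene-table means was Socs6, Socs5, Socs3, Socs4, Socs7, Cish, Socs2 and Socs1. Of the 7 neighbouring pairs, 1 did not overlap over the libraries, Socs7 above Cish by 2.17, 5.70 and 1.60 times. Socs6 was above Socs5 in each library, by 1.78, 1.92 and 2.16 times, although their ranges overlapped. The other 5 pairs changed order between libraries. Socs3 over Socs4, for example, was 2.63 in replicate 1, 0.502 in replicate 2 and 0.847 in replicate 3. With 3 libraries the smallest two-sided exact sign-flip p is 0.25, so no p is given.

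The deposited second quantification of the same libraries gave other levels for some members. Over protein-coding genes at 1 TPM or more, its TPM was a median of 1.58 ± 0.12 times that of the gene table (SD, n = 3). The ratio was 0.946 ± 0.0417 for Socs3, 1.051 ± 0.134 for Socs1, 1.08 ± 0.0891 for Socs5 and 1.13 ± 0.145 for Socs4. It was 1.24 ± 0.195 for Cish, 1.92 ± 0.222 for Socs7 and 1.96 ± 0.187 for Socs6 (SD, n = 3 each). Socs2 stood apart, with 3.49, 2.17 and 4.33 TPM in the second quantification, and all 3 values exceeded every gene-table value. There 72.5 ± 1.89% of Socs2 TPM lay in isoforms without a coding annotation (SD, n = 3). The highest were Socs2-206, annotated as a retained intron, at 1.21 ± 0.482 TPM and Socs2-212 at 0.950 ± 0.0936 TPM (SD, n = 3 each). In the gene table these isoforms averaged 0.0167 ± 0.0289 TPM and 0 TPM. For Socs6 the short coding Socs6-205 averaged 11.7 ± 4.05 TPM in the second quantification and 0.44 ± 0.235 TPM in the gene table, and for Socs7 the isoform Socs7-202 averaged 4.06 ± 1.06 and 0.773 ± 0.481 TPM (SD, n = 3 each). By that quantification 6 of 8 members reached 1 TPM in every library, beside 53.3% of protein-coding genes. The order of Cish and Socs2 was turned, with Socs2 above Cish by 1.21, 3.59 and 1.45 times in replicates 1, 2 and 3. Socs3 was spread widely there too, with 21.3, 1.42 and 7.66 TPM.

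**Figure D4:**
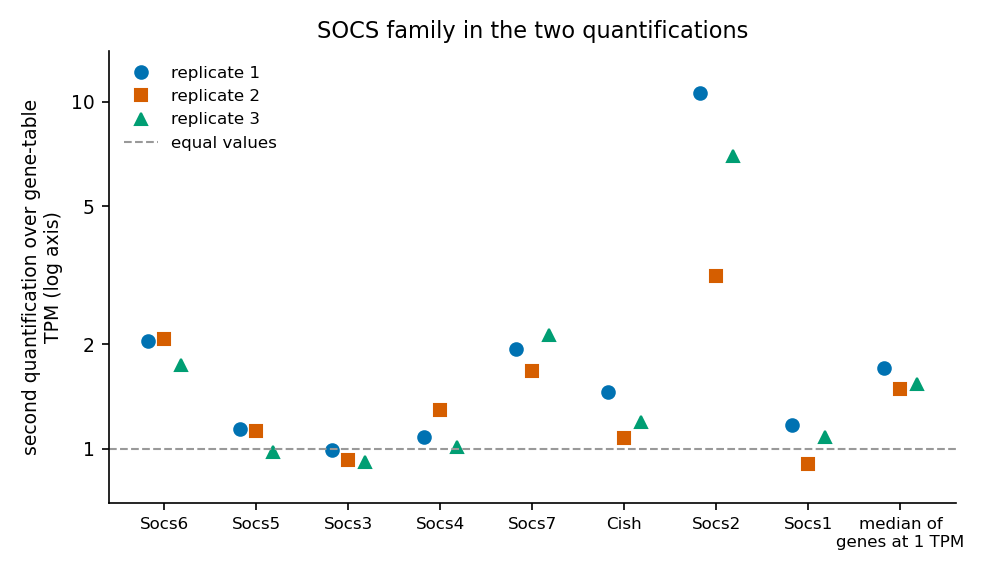
Ratio of TPM in the second quantification to TPM in the gene table for each SOCS family gene in each library, on a log axis, with the median ratio of protein-coding genes at 1 TPM or more at the right; the dashed line marks equal values. Socs2 lies between 3.14 and 10.6, while Socs1, Socs3, Socs4 and Socs5 lie near 1.

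The listed subunits of elongin and cullin ligases were all present. Of the 6 elongin, cullin and RING subunit genes, 6 had at least 1 TPM in every library. They were led by Rbx1 at 16.0 ± 5.54, Cul5 at 13.6 ± 4.29 and the elongin C gene Eloc at 13.2 ± 4.43 TPM (SD, n = 3 each). The other RING gene, Rnf7, was the lowest of the 6, at 3.34 ± 1.42 TPM (SD, n = 3). Of 26 other SOCS box genes 12 reached this level. Wsb1 and Wsb2, which pair WD40 repeats with a SOCS box, were at 162 and 42.0 TPM on average, above every SOCS family member, and the ankyrin repeat gene Asb6 was at 9.04 TPM. Asb9, Asb12, Asb16 and Asb18 had no count in the gene table, while the second quantification gave Asb18 0.762 ± 0.345 TPM and Asb16 0.264 ± 0.106 TPM (SD, n = 3 each).

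The kinases and most transcription factors of the JAK and STAT lists were also present. All 4 JAK genes had at least 1 TPM in every library, with means of 36.01 TPM for Tyk2, 29.8 for Jak1 and 13.6 for Jak3. Of 7 STAT genes 6 did, among them Stat2 at 114 TPM and Stat6 at 62.9 TPM. Stat4 was the exception, at 0.527 ± 0.318 TPM (SD, n = 3). Of 26 receptor chains 18 did, led by the colony-stimulating factor receptor chains Csf2rb and Csf2ra at 93.4 and 85.5 TPM and the interleukin-10 receptor chain Il10ra at 57.5 TPM.

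Few ligands of the pathway were detected in the gene table. Of 20 cytokine and hormone genes 3 reached 1 TPM in every library, the gp130 cytokine gene Osm at 27.4 ± 9.58 TPM, Il10 at 13.4 ± 13.1 TPM and Ebi3 at 2.43 ± 1.495 TPM (SD, n = 3 each). In the gene table Ifng, Il11, Lep, Il12a, Prl, Epo and Gh had no count in any library. The second quantification had 6 ligands at 1 TPM or more in every library, and there Il4 averaged 8.23 ± 3.51 TPM and Il11 0.705 ± 0.244 TPM (SD, n = 3 each). The 11 other inhibitors of JAK and STAT signalling were all at 1 TPM or more in every library, led by the phosphatase genes Ptprc, Ptpn1 and Ptpn6 at 316, 38.1 and 29.4 TPM. Of 15 genes of described SOCS partners 12 were, led by the kinase genes Irak1 and Btk at 26.9 and 20.7 TPM and the adaptor gene Nck2 at 15.8 TPM. Kit, the epidermal growth factor receptor gene Egfr and Irs1 were under 1 TPM in every library, averaging 0.563, 0.113 and 0.0133 TPM. In the second quantification Egfr averaged 1.51 ± 0.470 TPM (SD, n = 3). Of 15 genes described as STAT3 or STAT5 targets 14 had at least 1 TPM in every library. They were led by the immediate early gene Fos at 287 TPM, the survival gene Mcl1 at 231 TPM and the growth factor gene Vegfa at 222 TPM. The family median of 5.43 TPM was below the medians of the ligase list at 9.49, the JAK list at 21.7 and the STAT list at 38.2 TPM. It was also below those of the receptor list at 11.6, the other inhibitors at 13.6, the partners at 9.75 and the STAT targets at 27.4 TPM. It was above those of the other SOCS box genes at 0.852 and the ligands at 0.117 TPM.

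**Figure D5:**
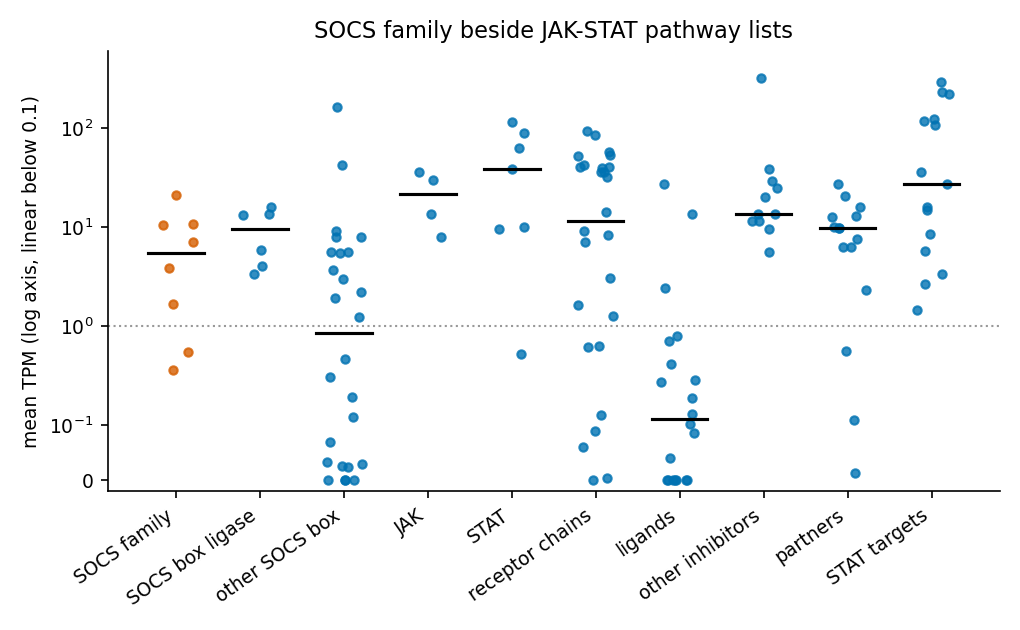
Mean gene-table TPM of each gene of the SOCS family and of 9 pathway lists, 1 point per gene with a bar at the list median; the axis is logarithmic above 0.1 and linear below, and the dotted line is 1 TPM. The SOCS family spans 0.36 to 20.99 TPM, below the STAT list median of 38.2 TPM and above the ligand median of 0.117 TPM.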

How the data were processed

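Total RNA of the chromatin fraction was sequenced from 3 libraries of 1 group. The deposited gene and transcript tables give expected counts and TPM, per the file headers, and the authors' transcript table gives the percent of a gene's abundance in each isoform. Another deposited table, of transcripts, holds estimated counts and TPM, called the second quantification, and was summed by gene. The authors set TPM to sum to 1000000 over all features, so the TPM of a gene moves with the share that other features hold. The posterior SD of a count was read from the deposited gene table. The labels name assembly mm10, and IDs matched GENCODE M21; aligner, counting programs and strand use were not given in the sources used here.

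Members and lists were chosen with earlier results of these data known. The rule for named genes takes the 8 members, the 3 highest genes and those with no count of each pathway list, and the 3 genes nearest to Socs6 and Socs5 in library deviations. The neighbours of Socs3, and Cxcl1, Gbp5, Stat4, Rnf7, Egfr, Kit, Irs1, Cd3d and Cd8a, were chosen after their values were seen. A few list genes are not reported here. There were 18 lists, 7 of them cell type markers. Deviations used log2(scaled TPM + 1), with genes of similar mean taken within 0.5 in log2, at a mean of at least 0.1 TPM.

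Expected counts, rounded to whole numbers, gave TMM factors in edgeR 4.0.16 and size factors in DESeq2 1.42.0 (R 4.3.3). Other steps used Python 3.11.15, numpy 2.4.6, pandas 2.3.3, scipy 1.17.1 and matplotlib 3.10.9. Only the scaling to protein-coding genes, the library deviations and the SD percentile were tested on simulated data. Alternatives were the threshold, the pseudocount, the scaling, the low-value filter, the second quantification and leaving out each library.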

Additional observations from a re-analysis of the deposited data

How the results depend on the processing

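No paired analysis was possible because all 3 libraries belong to 1 group. The count of 5 members at 1 TPM was 6 at a threshold of 0.5 TPM and 2 at 5 TPM. It was 8 on TPM rescaled to protein-coding genes, where the median was 24.1 by construction, since the sum is then taken over fewer genes. The median was 8.76 TPM without Socs1 and Socs2, an alternative chosen after seeing the data. Without each library in turn it ranged from 4.28 to 6.59 TPM, and the count from 5 to 6. Neighbouring pairs without overlap numbered 1 in the gene table, 3 in the second quantification and 1 to 5 with a library left out; fewer libraries overlap less often. The share of family TPM outside coding isoforms, 13.5%, was 6.95% in expected counts and 21.4% in the second quantification, and the cause of the difference was not tested. Isoforms holding at least 90% of an intron, a measure added after seeing the data, held 2.01%. Leaving out a library gave 12.7 to 14.3%. The median SD of log2 over the members was 0.43, and 0.29 on TMM-scaled counts; it ranged from 0.15 without replicate 2 to 0.53 without replicate 3, so replicate 2 decides it. The SD of Socs3 was 1.34 on TMM-scaled counts, at percentile 99.87. Gene-table values of Socs1 and Socs2 rest on 10 to 23 expected counts in a library, and those of Socs2 on 117.5 to 168.5 in the second quantification.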
